A study of Mus musculus with 6 samples.

Results

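The genes of cholesterol synthesis and of the SREBP-2 circuit that controls them were compared between the livers of LERKO and CT mice. They are 26 listed genes: 19 enzymes in pathway order, 4 regulators of SREBP-2 (Srebf2, Scap, Insig1 and Insig2) and 3 genes of sterol uptake and transport (Stard4, Mylip and Npc1l1). A gene was taken where the array has a probe set paired with that gene alone, and where there were several, the one of highest mean signal was used. By this rule 25 of the 26 genes were measured, of 18820 genes in the whole table, and 22 of them reached a signal of 100 in at least 1 array, as did 6902 genes in all. Acat2, the thiolase that opens the pathway, has no such probe set and no value here. Mvd, Ggps1 and Npc1l1 stayed below a signal of 100 in all 6 arrays.

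Liver RNA of 3 LERKO and 3 CT mice, all female and of C57BL/6J background, was hybridised to 1 Affymetrix Mouse Gene 1.1 ST array per mouse. LERKO mice carry floxed alleles of estrogen receptor alpha (ERα, gene Esr1) on both chromosomes together with cre recombinase under the albumin promoter, which is active in hepatocytes. CT mice carry the same floxed alleles without cre, so that loss of ERα and presence of the transgene cannot be told apart. The colony was fed ad libitum, and the sources used here give neither the age nor the feeding state at sampling of the mice on the arrays. The signal of Esr1 was 6.75, 7.06 and 6.77 on the log2 scale in LERKO mice, against 8.45, 8.78 and 8.29 in CT mice. The genotypes did not overlap (difference −1.65, standard error 0.15, adjusted p = 0.149 from limma). The adjusted p of Esr1 was 0.0409 where a signal of 100 was asked of all 6 arrays and 0.0490 with a trend and robust variances, and lay between 0.0703 and 0.765 under the other alternatives. The paper lists Esr1 among its significant genes at a false discovery rate of 5%. Whether its probes fall within the floxed exon could not be read from the files. All values below are log2 signals of the robust multichip average (RMA), in which 1 unit is a 2-fold difference, and differences are LERKO minus CT.

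Cholesterol is made from acetyl-CoA. The first enzymes lead through mevalonate to farnesyl diphosphate, from which squalene synthase opens the branch to sterols, and lanosterol is then trimmed, reduced and isomerised to cholesterol. The transcription factor SREBP-2 drives nearly all of these genes. It is held in the endoplasmic reticulum by SCAP and the INSIG proteins while sterols are plentiful, and when sterols fall it is carried to the Golgi, cut and released to the nucleus. The liver is a main site of this synthesis, and its rate follows feeding and the supply of sterols.

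SREBP-2 acts on these genes together with NF-Y, a factor that binds CCAAT boxes, and the starts of the genes were therefore read for both kinds of element. In the RefSeq promoters of build GRCm38.p6, 22 of the 26 genes have an entry, and Fdps, Fdft1, Sqle and Stard4 have none. Letters were sought within the 250 bases before an annotated start, on either strand. A gene with several starts was counted if any of them held the letters. CCAAT was present in 20 of the 22 genes (90.9%) and in 15 of 16 enzyme genes. Of 5636 genes with a probe set past the filter, 40% held it. Counted by promoter, it was in 20 of 28 for the set (71.4%), beside 33.8% of all 32851 promoters. Mvk held 5 copies, and Acat2 and Scap held none. The letters TCACNCCAC, a strict form of the sterol regulatory element, were found in 1 of the 22 genes, Hmgcs1, beside 1.42% of the genes past the filter. By promoter, this was 1 of 28 (3.57%), beside 1.05% of all promoters. The E-box CACGTG was found in 5 of the 22 genes (22.7%), beside 10.9% of the genes past the filter. By promoter, this was 5 of 28 (17.9%), beside 6.02% of all promoters. A match of letters is not a site of binding. Of the enzymes with the 3 smallest p values in the arrays (Lss, Fdft1 and Pmvk), Lss and Pmvk have an entry and are shown with Hmgcs1, the gene that holds the sterol element, each 5′ to 3′ up to the base before the start. Pmvk has 2 annotated starts, of which the upstream one is shown. Capitals mark CCAAT, its reverse complement ATTGG and the sterol element.
Hmgcs1, chr13:119690101-119690350, + strand: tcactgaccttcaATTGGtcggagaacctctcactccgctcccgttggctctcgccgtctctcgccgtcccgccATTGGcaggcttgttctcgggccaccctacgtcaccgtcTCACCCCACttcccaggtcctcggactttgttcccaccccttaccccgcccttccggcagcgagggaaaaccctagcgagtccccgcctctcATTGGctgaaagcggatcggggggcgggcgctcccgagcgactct
Pmvk, chr3:89454291-89454540, + strand: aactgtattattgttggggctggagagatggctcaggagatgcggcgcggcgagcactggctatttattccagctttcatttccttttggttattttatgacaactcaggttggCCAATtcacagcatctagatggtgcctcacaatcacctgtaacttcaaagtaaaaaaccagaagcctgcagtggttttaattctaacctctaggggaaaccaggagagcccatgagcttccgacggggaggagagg
Lss, chr10:76531355-76531604, + strand: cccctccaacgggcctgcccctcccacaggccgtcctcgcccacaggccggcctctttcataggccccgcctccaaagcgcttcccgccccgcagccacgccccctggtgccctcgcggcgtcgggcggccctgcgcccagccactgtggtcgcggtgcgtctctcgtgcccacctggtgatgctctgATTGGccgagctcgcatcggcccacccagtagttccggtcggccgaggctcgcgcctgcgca
In Hmgcs1 the sterol element begins 137 bases before the start, between inverted CCAAT boxes that begin at 176 and 45 bases, and another inverted box lies farther upstream at 237 bases. Lss holds 1 inverted CCAAT box, 62 bases before its start. In Pmvk the box reads forward and begins at 136 bases, and the window of its other start holds none. The marked elements do not overlap each other.

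Of the 18 enzymes measured, 17 had lower and 1 had higher mean levels in LERKO liver, with a median log2 fold change of −0.15, while the median over all 10633 probe sets tested was −0.01 and 53.5% of them lay below 0. The difference was small for most enzymes, from −0.53 for Lss to 0.04 for Hsd17b7. Over all probe sets tested, 0 of the 16 enzymes past the filter had an adjusted p under 0.05 from limma, and 0% of all probe sets did. At an unadjusted p under 0.05, which 6.98% of all probe sets reached, 1 of the 16 was lower (Lss) and 0 were higher, where 4% of all probe sets were lower and 2.98% higher. In 3 of the 16 (Pmvk, Fdft1 and Lss) every LERKO mouse lay below every CT mouse, beside 7.13% of all probe sets, and in 0 of the 16 every LERKO mouse lay above, beside 5.91%. The median of the enzymes was −0.06 without LERKO replicate 1, −0.10 without CT replicate 1, −0.24 without LERKO replicate 3 and −0.29 without CT replicate 2, so that each of these mice moved it by more than 1.5 times. In whole liver, fewer hepatocytes and less RNA per hepatocyte cannot be told apart.

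**Figure D1:**
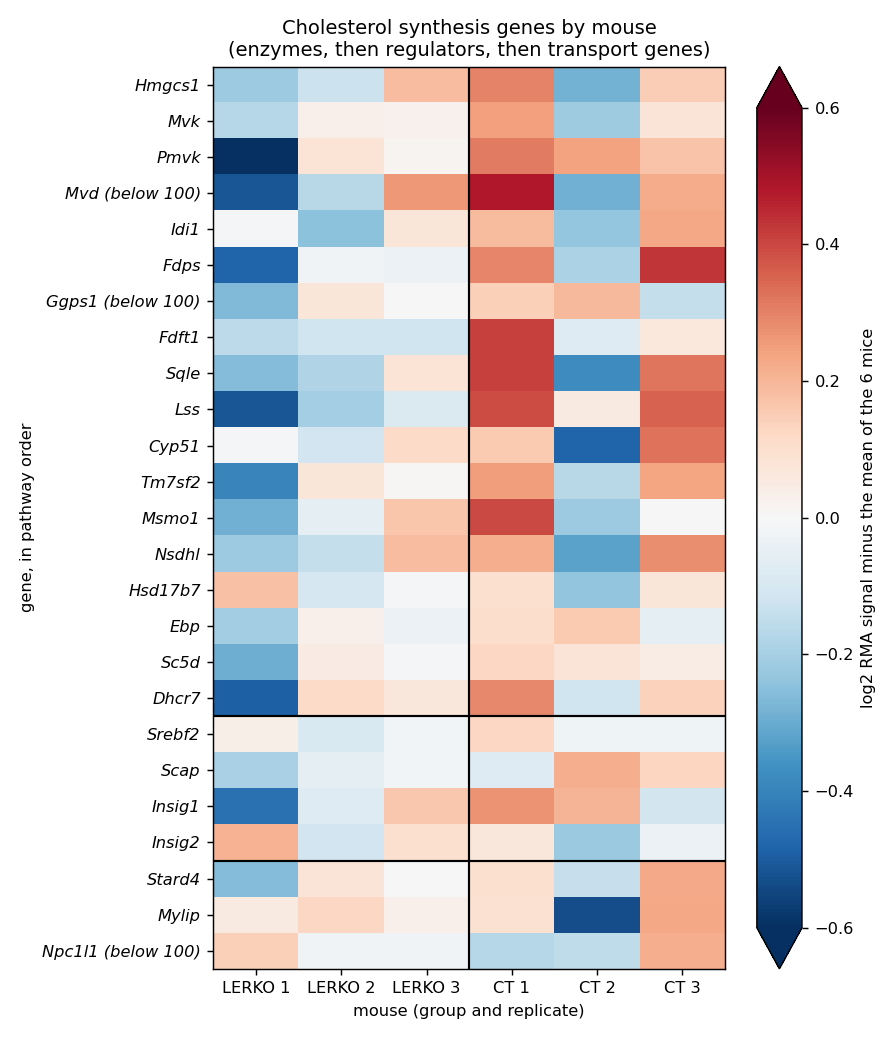
Log2 RMA signal of the 25 measured genes (rows, in pathway order) in each of the 6 mice (columns), relative to the gene's mean over the 6 mice; red is above and blue below that mean, and Pmvk in LERKO replicate 1 lies beyond the end of the colour scale. LERKO replicate 1 is blue for most enzymes and CT replicate 1 red, while CT replicate 2 is blue for the genes from Hmgcs1 to Nsdhl with the exceptions of Pmvk, Ggps1 and Lss.

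The enzymes that lead to farnesyl diphosphate were measured by 6 probe sets, and 6 of them had a negative difference, with a median of −0.20. Hmgcs1, the cytosolic synthase of HMG-CoA, was at 9.74, 9.83 and 10.14 in LERKO mice, against 10.26, 9.68 and 10.11 in CT mice. The groups overlapped, with CT replicate 2 the lowest of all 6, and the difference of −0.11 (standard error 0.18, adjusted p = 0.907 from limma) turned to 0.013 without CT replicate 1. Mvk, the kinase of mevalonate, had a difference of −0.07 (95% interval −0.39 to 0.24), and it also turned, to 0.032, without CT replicate 1.

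Pmvk, the next kinase, was at 6.71, 7.62 and 7.56 in LERKO mice, against 7.85, 7.78 and 7.71 in CT mice. The CT mice were close together, and the difference of −0.49 (standard error 0.24, adjusted p = 0.726 from limma) was −0.19 without LERKO replicate 1, the lowest of the 6. Mvd, the decarboxylase that follows, was at 5.34, 5.69 and 6.11 in LERKO mice, against 6.33, 5.56 and 6.07 in CT mice, all below a signal of 100. The groups overlapped, with a difference of −0.28 (standard error 0.26).

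Idi1, the isomerase of isopentenyl diphosphate, had a difference of −0.12 (standard error 0.15). A second probe set paired with Idi1 alone gave −0.11. Fdps, the synthase of farnesyl diphosphate, was at 9.39, 9.85 and 9.84 in LERKO mice, against 10.17, 9.68 and 10.30 in CT mice. Of the CT mice only replicate 2 reached into the LERKO range, and the difference of −0.36 (standard error 0.20, adjusted p = 0.748 from limma) was −0.54 without that mouse and −0.21 without LERKO replicate 1. Ggps1, which leads away from sterols to the lipid tails of proteins, had −0.13 (standard error 0.14) below a signal of 100.

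From squalene on, 11 enzymes were measured, of which 10 had a negative difference, with a median of −0.16. Fdft1, squalene synthase and the first enzyme committed to sterols, was at 10.81, 10.85 and 10.84 in LERKO mice, against 11.38, 10.89 and 11.03 in CT mice. The LERKO mice were nearly identical and all lay below the CT mice, and the difference of −0.26 (standard error 0.13, adjusted p = 0.722 from limma) was −0.12 without CT replicate 1, the highest mouse. Sqle, squalene epoxidase, a rate-limiting step of the sterol branch, was spread from 8.50 to 8.85 in LERKO mice and from 8.39 to 9.17 in CT mice. The lowest and the highest Sqle signals were both in CT mice, and the difference was −0.24 (95% interval −0.76 to 0.28).

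Lss, lanosterol synthase, which closes the rings of the sterol, had the smallest p of the enzymes. Its signal was 8.52, 8.83 and 8.95 in LERKO mice, against 9.43, 9.09 and 9.39 in CT mice. No LERKO mouse reached the lowest CT mouse, replicate 2. The means were 8.77 ± 0.22 in LERKO and 9.30 ± 0.19 in CT mice (SD, n = 3 each), a fold of 0.691 (95% interval 0.545 to 0.876 from limma). The difference of −0.53 (standard error 0.14) had an unadjusted p of 0.00821 and an adjusted p of 0.703 over all probe sets in limma. It ranged from −0.64 to −0.41 with 1 mouse left out, with unadjusted p values up to 0.0305, and was −0.52 without CT replicate 3 and LERKO replicate 2 together. The adjusted p lay between 0.401 and 0.992 over all alternatives.

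**Figure D2:**
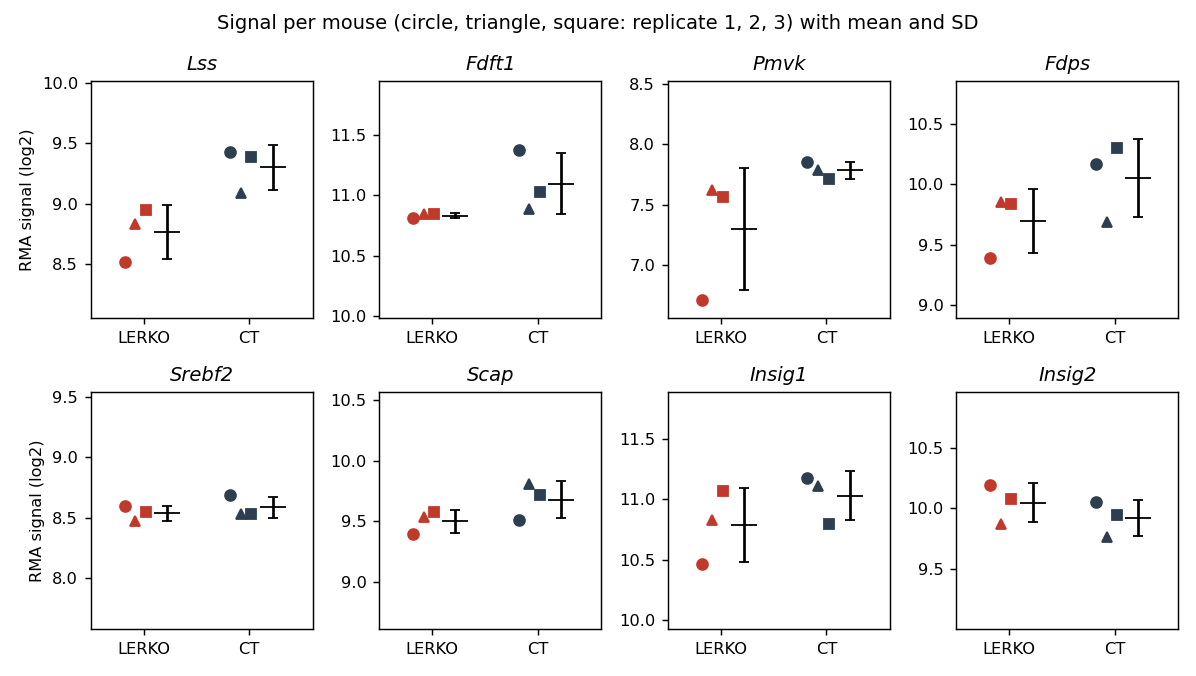
RMA signal (log2) of 4 enzymes (upper row) and the 4 regulators (lower row), each symbol a mouse (circle, triangle and square for replicates 1, 2 and 3), with bars for mean and SD of the 3 LERKO and 3 CT animals; each panel spans the same number of log2 units. For Lss, Fdft1 and Pmvk the LERKO symbols all lie under the CT symbols, while Fdps and the regulators overlap.

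The enzymes after lanosterol did not repeat the size of the difference of Lss. Cyp51, the demethylase that takes lanosterol, had a difference of −0.005 (95% interval −0.50 to 0.49), with LERKO mice from 9.37 to 9.60 and CT mice from 9.01 to 9.82. Its LERKO mice lay entirely within the spread of the CT mice. Tm7sf2, a sterol reductase, had −0.21, Msmo1, a methylsterol oxidase, −0.12, and Nsdhl, a dehydrogenase that acts after it, −0.12. Hsd17b7, a ketosteroid reductase of the demethylation complex, was the 1 enzyme with a positive difference, 0.04 (95% interval −0.24 to 0.33). Ebp, the sterol isomerase, had −0.14, Sc5d, the desaturase, −0.16 and Dhcr7, the last reductase, −0.20. For Sc5d and Dhcr7 LERKO replicate 1 stood below the other 5 mice, and without it the differences were −0.06 and −0.01. The 95% intervals of 17 of the 18 enzymes excluded a 2-fold difference in either direction, and those of 11 excluded a 1.5-fold difference.

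**Figure D3:**
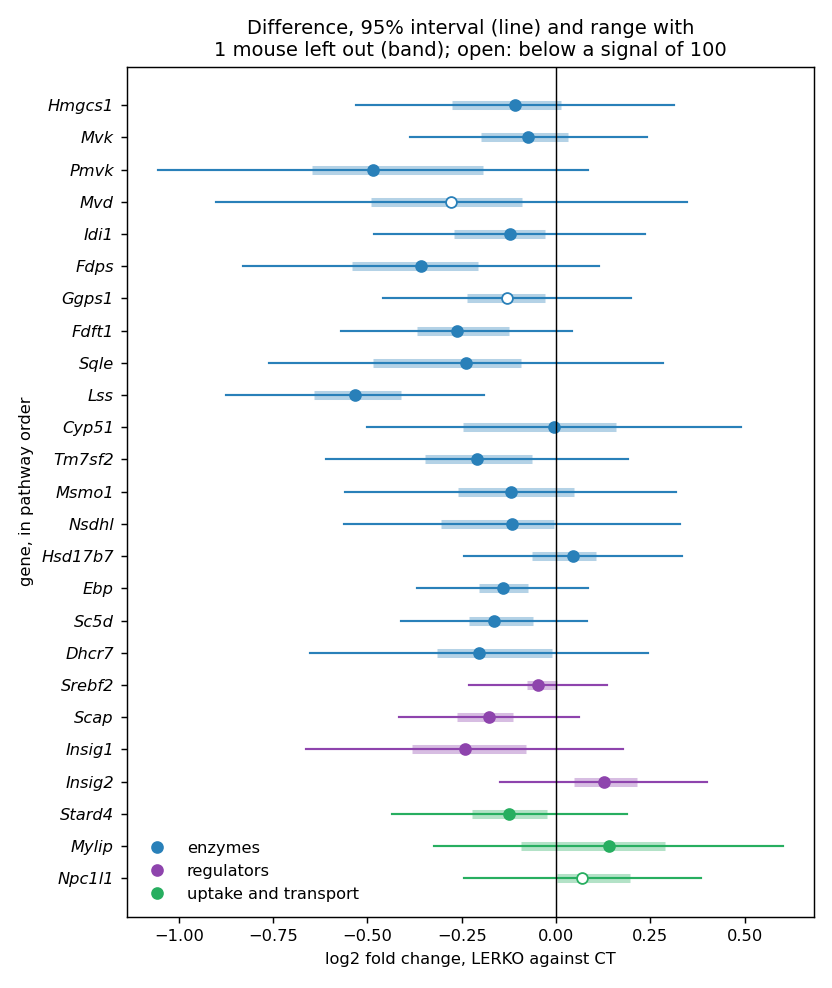
Difference in log2 signal, LERKO minus CT, for the 25 genes with a probe set, with the 95% interval from limma (line) and the range with 1 mouse left out (band); open symbols are genes below a signal of 100 in all arrays. The interval of Lss alone lies to the left of 0, and the intervals of the other 24 genes include it.

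The enzymes varied more between mice of 1 genotype than most genes did. Their within-group SD had a median of 0.25 on the log2 scale, beside 0.12 over all probe sets tested, and 11 of the 16 lay above the upper quartile of all probe sets (0.19). CT replicate 1 was above CT replicate 2 for 16 of the 18 enzymes, by a median of 0.44, and CT replicate 3 was above CT replicate 2 for 14, by 0.31, where the medians over all probe sets were −0.02 and −0.07. LERKO replicate 3 was above LERKO replicate 1 for 17 of the 18, by a median of 0.37, and LERKO replicate 2 was above LERKO replicate 1 for 15, by 0.23, where all probe sets had medians of 0.03 and 0.02. The remaining pairs lay closer. LERKO replicate 3 was above LERKO replicate 2 for 9 and below it for 9, with a median of 0.05, and CT replicate 1 was above CT replicate 3 for 14, by 0.12. Of the 6 gaps between mice of 1 genotype, 4 were thus wider than the median difference between the genotypes and 2 were narrower. LERKO replicate 1 was the lowest of the 6 mice for 11 of the 18 enzymes and CT replicate 2 for 6, while over all probe sets LERKO replicate 1 was the lowest for 20.8% and CT replicate 2 for 16.4%. CT replicate 1 was the highest for 11, beside 18.2% of all probe sets, and CT replicate 2 for 2, although that mouse was the highest for 28.3% of all probe sets. For 15 of the 18 enzymes the range of the 3 CT mice was wider than the difference between the group means.

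Averaged over the 18 enzymes and set against the mean of the 6 mice, the levels were −0.29, −0.06 and 0.05 in the LERKO mice and 0.27, −0.14 and 0.16 in the CT mice. CT replicate 2 thus lay below a pair of the LERKO mice. The early and the late enzymes gave the same order of the mice. Genes of fatty acid synthesis and its regulation, among them targets of the related factor SREBP-1c, were at −0.36, 0.03 and 0.03 in the LERKO mice. In the CT mice they were at 0.23, −0.16 and 0.23. LERKO replicate 1 and CT replicate 2 were again the low mice of their groups.

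**Figure D4:**
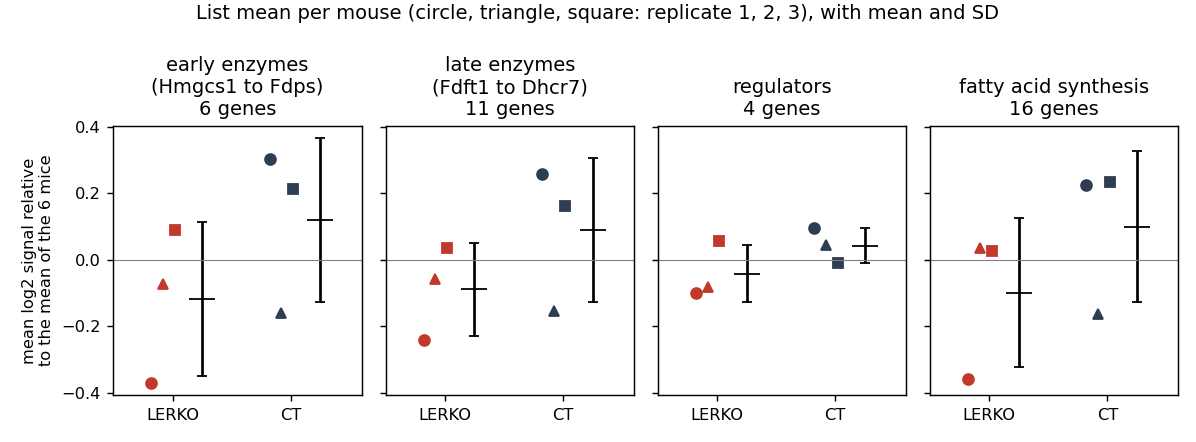
Mean log2 signal over the early enzymes (6 genes), the late enzymes (11 genes), the regulators (4 genes) and genes of fatty acid synthesis (16 genes), relative to the mean of all 6 mice, each symbol a mouse (shapes as in the plot of signals), with bars for mean and SD of the 3 animals of a genotype. In the enzyme panels and in fatty acid synthesis the circle of LERKO (replicate 1) and the triangle of CT (replicate 2) lie lowest, and the groups overlap in every panel.

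The regulators of the circuit overlapped between the genotypes, where 7.13% of all probe sets lay wholly below and 5.91% wholly above in LERKO mice. Of the 4, 0 had an unadjusted p under 0.05 from limma, beside 6.98% of all probe sets. Srebf2, which encodes SREBP-2 and is itself among its targets, was at 8.60, 8.47 and 8.54 in LERKO mice, against 8.68, 8.53 and 8.53 in CT mice. It had the smallest within-group SD of the 25 genes, 0.08, and its difference of −0.05 had a 95% interval of −0.23 to 0.14. Scap, the escort of SREBP-2, was at 9.39, 9.54 and 9.57 in LERKO mice, against 9.51, 9.81 and 9.72 in CT mice. Its difference was −0.18 (standard error 0.10, adjusted p = 0.748 from limma), and CT replicate 1 alone lay within the LERKO range. A second Scap probe set, far below a signal of 100, gave 0.02.

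Insig1, which retains SCAP in the endoplasmic reticulum and is induced by SREBP-2, was at 10.46, 10.83 and 11.07 in LERKO mice, against 11.18, 11.11 and 10.80 in CT mice. LERKO replicate 1 was the lowest, as for the enzymes, but CT replicate 2 was not low. The difference was −0.24 (standard error 0.18) and −0.08 without LERKO replicate 1. Insig2, the paralog that insulin represses in liver, was at 10.19, 9.87 and 10.08 in LERKO mice, against 10.05, 9.76 and 9.94 in CT mice. Here LERKO replicate 1 was the highest of the 6 mice and CT replicate 2 the lowest. The difference of 0.13 (standard error 0.11, adjusted p = 0.823 from limma) was of the opposite sign to that of Insig1, and the difference between the paralogs was not tested.

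Among the genes of uptake and transport, Stard4, a cytosolic sterol carrier and target of SREBP-2, had a difference of −0.12 (95% interval −0.43 to 0.19). Mylip, the ubiquitin ligase that removes lipoprotein receptors and is induced by the sterol sensor LXR, was at 8.25, 8.31 and 8.22 in LERKO mice, against 8.28, 7.66 and 8.42 in CT mice. CT replicate 2 stood below the other 5 mice, and the difference of 0.14 turned to −0.09 without it. Npc1l1, the transporter that takes up sterols in the intestine, was between 3.73 and 3.90 in LERKO mice and between 3.58 and 3.97 in CT mice, far below a signal of 100.

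Other genes of sterol handling, from lists that hold no enzyme of the pathway, lay on both sides of 0, and 0 of them had an adjusted p under 0.05. Of 11 genes that escort, cut or degrade SREBP and its partners, 6 were lower and 5 higher, with a median of −0.0038. Erlin1, a protein of the endoplasmic reticulum that restrains SREBP, was at 8.51, 8.59 and 8.55 in LERKO mice, against 8.74, 9.19 and 8.73 in CT mice. The genotypes did not overlap, with a difference of −0.33 (standard error 0.13, unadjusted p = 0.0440 and adjusted p = 0.703 from limma). Without CT replicate 2 the difference was −0.18. Sec23a, a subunit of the vesicle coat that carries SREBP to the Golgi, was 0.15 higher, and each LERKO mouse exceeded each CT mouse (adjusted p = 0.731 from limma). Of the 10 past the filter, 1 thus lay wholly below and 1 wholly above, beside 7.13% and 5.91% of all probe sets. Rnf139, a ubiquitin ligase of the endoplasmic reticulum, had −0.14 and Ubxn4, which acts in protein degradation there, −0.10, and both overlapped.

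Of 10 genes of the branches to dolichol, ubiquinone and prenylated proteins, 5 were lower and 5 higher, with a median of −0.0016. Dhdds, a subunit of the enzyme that makes dolichol, had −0.11, with each LERKO mouse under each CT mouse. It was 1 of 8 past the filter, beside 7.13% of all probe sets. Trit1, which prenylates transfer RNA, had −0.12, and Fnta and Fntb, the subunits of protein farnesyltransferase, had 0.08 and 0.15, all with overlap. Trit1 and Fntb stayed below a signal of 100 in all arrays. Of 16 genes of sterol movement, 8 were lower and 8 higher, with a median of −0.0036. Among them, the sterol transfer proteins Gramd1a and Gramd1c had −0.29 and 0.19, Stard3, a sterol carrier of endosomes, −0.17, and Osbpl2, an oxysterol-binding protein, 0.13. In these 4 genes, named for their p, the genotypes did not overlap. Gramd1a stayed below a signal of 100 in all arrays (unadjusted p = 0.0366 from limma without the filter). Of the 15 past the filter, 1 lay wholly below and 2 wholly above in LERKO mice, beside 7.13% and 5.91% of all probe sets. Of 7 genes of LXR and its targets, 5 were lower and 2 higher, with a median of −0.09. Srebf1, with −0.38, had the smallest p of this list and is counted again among the genes of fatty acid synthesis below. Abca1, which exports cholesterol to lipoproteins, had −0.16, Lpcat3, which remodels phospholipids, −0.11, and Abcg5, which exports sterols to bile, 0.11. All 7 passed the filter. Of them 1, Lpcat3, lay wholly below and 0 wholly above in LERKO mice, beside 7.13% and 5.91% of all probe sets.

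Fatty acid synthesis was read from 16 genes, of which 12 were lower and 4 higher in LERKO liver, with a median of −0.19, close to that of the cholesterol enzymes. Srebf1, the gene of SREBP-1, was at 8.84, 9.33 and 9.17 in LERKO mice, against 9.49, 9.74 and 9.26 in CT mice. Its difference was −0.38 (standard error 0.17, adjusted p = 0.703 from limma), and CT replicate 3 alone lay within the LERKO range. Elovl6, a fatty acid elongase, had −0.55 (unadjusted p = 0.0475 in limma), with the groups overlapping. Mlxipl, the gene of the glucose sensor ChREBP, had −0.25 without overlap, and Acaca, acetyl-CoA carboxylase, −0.26 with overlap. Of the 15 past the filter, 1 lay wholly below and 1 wholly above, beside 7.13% and 5.91% of all probe sets.

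Markers of other organs were high in a pair of arrays, and the values that touch this pathway were set against them. All 9 measured adrenal markers were highest in LERKO replicate 2, where their summed signal was 7469, beside 189.5 to 226 in the other LERKO mice and 195 to 224 in CT mice. LERKO replicate 2 was the highest of the 6 mice for 0 of the 18 enzymes, beside 11.4% of all probe sets. Among the 3 LERKO mice it was the highest for 9 of the 18. The part of adrenal RNA in the values of that mouse was not tested. Gramd1b, a sterol transfer protein of the adrenal named after its values were seen, was at 8.20 in that mouse and between 5.65 and 5.84 in the other 5. All 10 pancreas markers were highest in CT replicate 3, with a sum of 2205, beside 116 to 133 in LERKO mice and 125 and 127 in the other CT mice. Muscle markers were also highest in CT replicate 3 (9 of 9), and 4 of 5 fat markers in LERKO replicate 2. Hepatocyte markers reached a signal of 100 in all arrays (10 of 10), with sums of 91651 to 94465 in LERKO mice and 91612 to 96540.4 in CT mice. Without LERKO replicate 2 and CT replicate 3 together, the median of the enzymes was −0.23, with 14 of 18 lower, and Idi1, Cyp51 and Nsdhl turned to the positive side, where Hsd17b7 already was. Markers of bile duct cells summed to 152 to 162 in LERKO mice and 174 to 220 in CT mice, and those of red blood cells (2 genes) to 178 to 192 in LERKO mice and 199 to 285 in CT mice, without overlap. Of these markers, 4 of 5 and 1 of 2 stayed below a signal of 100 in all arrays. Markers of Kupffer, endothelial and stellate cells overlapped between the genotypes and were each lowest in CT replicate 2, 1 of the mice with low levels of the enzymes. LERKO replicate 1, also low for the enzymes, was the lowest LERKO mouse for endothelial and stellate markers. For Kupffer markers it was not (2992, beside 2709 in LERKO replicate 3). CT replicate 2 also had the highest sum of hepatocyte markers. The part of any of these cells in the differences was not tested.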

How the data were processed

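Arrays of the type Mouse Gene 1.1 ST were read from liver RNA, 1 per animal, in 3 LERKO and 3 CT mice that the labels call biological replicates. The authors made the deposited log2 values with RMA in the oligo package (version not given in the sources used here), which corrects background, equalises quantiles over arrays and summarises probes, so that differences are relative to the other genes. Arrays correlated at 0.967 to 0.989, and each held 9452 to 9865 probe sets at a signal of 100 or above.

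Genes were named from the annotation of the platform, updated through gene identifiers. Of 35556 probe sets, 21218 had 1 gene, 1881 had several and 12457 had none, and only the first kind named a gene. All probe sets that reached 100 in at least 1 array, 10633 in number (7895 with 1 gene), were tested with limma 3.58.1 (R 4.3.3; lmFit, eBayes, two-sided, genotype only) and adjusted together by Benjamini-Hochberg at 0.05. Genes below the filter were read from the fit without it. Some genes of the pathway are not reported here.

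The members and lists were chosen with earlier results of these data known. By rule, values of every mouse are given for members with an unadjusted p under 0.05 or without overlap, the 5 of largest difference and the regulators, to which Hmgcs1 and Mylip were added, and up to 4 genes of smallest p are named from each other list. Alternatives covered the filter, moderation, array weights, scaling, choice of probe set, a replicate block and left-out arrays.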

Additional observations from a re-analysis of the deposited data

How the results depend on the processing

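Of 394 values of single genes under the alternatives, 378 kept their direction and their side of an adjusted p of 0.05 in limma, and 0 gained a call. The number of probe sets with an adjusted p under 0.05 was 0, and became 2 with a trend and robust variances, 3 where a signal of 100 was asked of all 6 arrays, and 0 to 1 with 1 array left out. None of these was a gene of the set. The median of the enzymes was −0.29 to −0.06 with 1 array left out, and that of the regulators and transport genes −0.09 to 0.0017. Array weights moved Hsd17b7 to −0.0014 and put all 18 enzymes below 0, with a median of −0.21. All 18 also lay below 0 without CT replicate 2 and without LERKO replicate 1, but only 13 did without CT replicate 1. Cyp51 turned to 0.00048 after a shift to common medians and to 0.0064 after cyclic loess. Without CT replicate 3 and LERKO replicate 2 together, Idi1 was at 0.054, Cyp51 at 0.21 and Nsdhl at 0.035. With 1 array left out, directions also turned for Hmgcs1 (−0.28 to 0.013), Mvk (−0.20 to 0.032), Cyp51 (−0.25 to 0.16), Msmo1 (−0.26 to 0.048), Hsd17b7 (−0.063 to 0.11), Srebf2 (−0.077 to 0.0029) and Mylip (−0.092 to 0.29). The cause was not tested. Same-numbered mice did not deviate together (correlations of −0.16, −0.07 and −0.14). These deviations are from means of only 3 mice, so they cannot tell whether the numbers pair the mice. With the replicate block the number of probe sets called was 0, the median of the enzymes was −0.15 and that of the regulators and transport genes −0.05.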
